A study of Mus musculus with 2 samples.

Results

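The loci described here are annotated mouse genes that carried many unspliced reads on the strand opposite to the gene. Reads of single-exon transcript models classed as antisense were summed over the sense gene to which the deposited structures assign them. Genes were chosen by these counts, with a minimum of 10 antisense reads in both libraries. The rule kept 1535 of 10148 sense genes with an unspliced antisense read in either library, and 6786 genes had one in each library. Gm26917 held far more antisense reads than any other gene and is given apart, which leaves 1534 loci. Because the antisense counts chose the loci, their antisense levels are a description and carry no test.

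The study sequenced long reads of RNA from tissue labelled as a layer of the hippocampus, taken from female B6CASTF1/J mice aged 2 months. These mice are F1 hybrids of C57BL/6J and CAST/EiJ. The study holds 1 group of 2 libraries, replicate 1 and replicate 2, each made from 2 µg of RNA with ERCC and SIRV spike-ins, with no treated or control group. The labels call the libraries biological replicates and name a separate biosample for each under 1 shared donor entry, without stating whether these are different animals, so any p-value here compares the reads of 2 libraries and may measure technical spread only. Replicate 1 held 826596 reads and replicate 2 held 745492 reads that were not on spike-ins, so that 1 read equals 1.21 and 1.34 reads per 1000000 (CPM). Most markers of hippocampal neurons were high in the sense reads, with Hpca at 2219 and 2164 CPM and Snap25 at 1636 and 1666 CPM in replicates 1 and 2. Prox1, of the same marker list, was low at 13.3 and 25.5 CPM. Markers of astrocytes and oligodendrocytes were present (Gja1 at 529 and 537 CPM, Mbp at 1601 and 1816 CPM). Of the choroid plexus markers, Ttr stood at 328 and 176 CPM and Aqp1 had no read, which allows up to 3 reads of each total.

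Antisense RNA is copied from the strand opposite to a gene, and at many brain genes it is made as an unspliced, often noncoding transcript that may run through introns and 3′ untranslated regions (UTRs). A read that looks antisense can also come from a neighbouring gene that is read past its end, from a repeat element in an intron, or from a cDNA primed at an A-rich stretch inside an RNA. Position and the bases beside the model ends are therefore given with the counts below. Model ends are those of the deposited structures, many of which lie on annotated exon boundaries, and need not be the ends of single reads.

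The bases around the 3′ end are shown first, since a later result turns on how many of them are A. Sequences are given for 11 loci with a high antisense level, which are not a full list of the highest. Each model is the most-read of at least 10 bases in replicate 1 that ended inside an annotated exon, off its boundaries. It need not be the leading model of its locus. The bases come from GENCODE M21 transcript sequences on mm10. The last 10 bases of the model and the 20 bases after it read as follows on the antisense strand. Capitals mark the longest run of A where it reached 6 bases.
Cplx2 (chr13:54379547-54379576, minus strand): tcgcagggctgttccagggctgccttctcc
Slc1a2 (chr2:102784293-102784322, minus strand): gtgtgtgtgtgtgcatatgaaagggagaga
Snhg11 (chr2:158382179-158382208, minus strand): ccctcctctggatcttaaccaacagctcag
AI593442 (chr9:52676793-52676822, plus strand): tctgaggctcAAAAAAAAAAAAAAAAAAAA
2900097C17Rik (chr2:156391566-156391595, plus strand): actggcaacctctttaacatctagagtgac
Map1b (chr13:99424406-99424435, plus strand): tcgagtagctAAAAAAAAAAAAAAAAAAAA
Dpysl2 (chr14:66804875-66804904, plus strand): atttagtattAAAAAAAAAAAAAAtctctc
Nlgn3 (chrX:101320625-101320654, minus strand): gaagagctatcctgctctttaaagctcccg
Gnb1 (chr4:155557941-155557970, minus strand): aaagtcttgctacaaatgacttatatttag
Cnr1 (chr4:33945496-33945525, minus strand): agctagaccAAAAAAAAAAAAAAAAAAAAg
Nfia (chr4:98111482-98111511, minus strand): gcaccatgagaaattacgacagtccctaaa
Runs of A of at least 14 bases followed these models of AI593442, Map1b, Dpysl2 and Cnr1, and no run of 6 or more stood in the other 7.

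The loci without Gm26917 held 65217 unspliced antisense reads in replicate 1 and 58610 in replicate 2, which is 63.0% and 60.5% of such reads on annotated genes and 7.88% ± 0.0197 of all reads not on spike-ins (mean ± SD, n = 2). Most loci were modest. The median locus had 21 and 20 antisense reads, the quartiles lay at 15 and 36 reads in replicate 1 and at 14 and 32 in replicate 2, and 90 and 78 loci reached 100 reads. The 15 highest loci held 23.8% and 22.4% of the reads of the loci. Of the 1534 sense genes 1484 were protein-coding, 23 were lincRNAs, 13 were processed transcripts and 14 were of other types.

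At the edge of the rule, 141 loci had exactly 10 reads in their lower library, and 158 genes just outside had 9. Acyp1, Pip5k1b, Dlg5, App and Cdk8 were just inside with 10 antisense reads in each library. Braf with 58 and 9 reads, Trpm7 with 37 and 9, Nin with 9 and 24, Pde8b with 9 and 24 and Zc3h4 with 9 and 20 in replicates 1 and 2 were just outside.

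The highest locus was Cplx2, which encodes complexin 2, a regulator of synaptic vesicle fusion. It had 4059 and 3066 antisense reads in replicates 1 and 2, against 331 and 290 sense reads, so antisense reads made up 91.9% ± 0.779 of both strands (SD, n = 2). All of its antisense reads lay in the 3′ UTR, and 4056 and 3063 of them fell into 1 model a library, at chr13:54379567-54379964 and chr13:54379572-54380081 on the minus strand. RefSeq places an unnamed gene, LOC115488208, on that strand there. Shank1, a scaffold of the postsynaptic density, had 2417 and 2026 antisense reads against 66 and 61 sense reads. Nearly all of them were collected in models of 1 base, at chr7:44358005 with 2411 reads in replicate 1 and chr7:44358010 with 2013 reads in replicate 2, so the files place these reads in the 3′ UTR and do not give their extent.

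Other synaptic and membrane genes followed. Adam22, a synaptic receptor without protease activity, had 1043 and 736 antisense reads against 16 and 29 sense reads, and its leading model had the same ends in both libraries, chr5:8072352-8078686 on the plus strand, with 1024 and 723 reads. Nlgn3, a postsynaptic adhesion protein, had 371 and 319 antisense reads against 75 and 56 sense reads. Slc24a2, a potassium-dependent sodium-calcium exchanger, had 315 and 240 antisense reads against 60 and 61 sense reads. Antisense reads exceeded sense reads in both libraries at each of these genes, and Slc24a2 was the only one of the 15 highest whose antisense reads were intronic, at 99.4% and 100% of them. The glial glutamate transporter gene Slc1a2 had 1837 and 1508 antisense reads against 215 and 222 sense reads, with 91.0% and 88.3% of the antisense reads in its 3′ UTR.

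Among genes of the cytoskeleton, Map1b, which encodes a microtubule-associated protein of growing axons, had 480 and 572 antisense reads against 35 and 42 sense reads. Dpysl2, whose product CRMP2 acts in axon growth, had 361 and 367 antisense reads against 23 and 14 sense reads. In replicate 1, 343 of the Dpysl2 antisense reads were in a model placed mostly beyond the gene. Actb, the gene of cytoplasmic beta-actin, was the exception among the 15 highest: its 287 and 292 antisense reads stood against 593 and 547 sense reads, or 33.7% ± 1.55 of both strands. The remaining 14 had more antisense than sense reads in both libraries. Gnb1, a G protein beta subunit, had 326 and 276 antisense reads against 263 and 267 sense reads.

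Snhg11, a small nucleolar RNA host gene that is typed protein-coding in GENCODE M21, had 1616 and 1491 antisense reads against 189 and 166 sense reads. AI593442 had 831 and 705 antisense reads against 10 and 16 sense reads. 2900097C17Rik, a lincRNA gene, had 730 and 721 against 468 and 462, and Tmem250-ps had 421 and 361 against 11 and 4. At these 4 genes 1 model held 99.8 to 100% of the antisense reads in each library. In 10 of the 15 highest loci over 50% of the antisense reads lay in the 3′ UTR in both libraries. At AI593442 the leading model was placed in the 3′ UTR in replicate 1 and mostly beyond the gene in replicate 2, where it was 8128 bases long against 3759 in replicate 1.

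**Figure D1:**
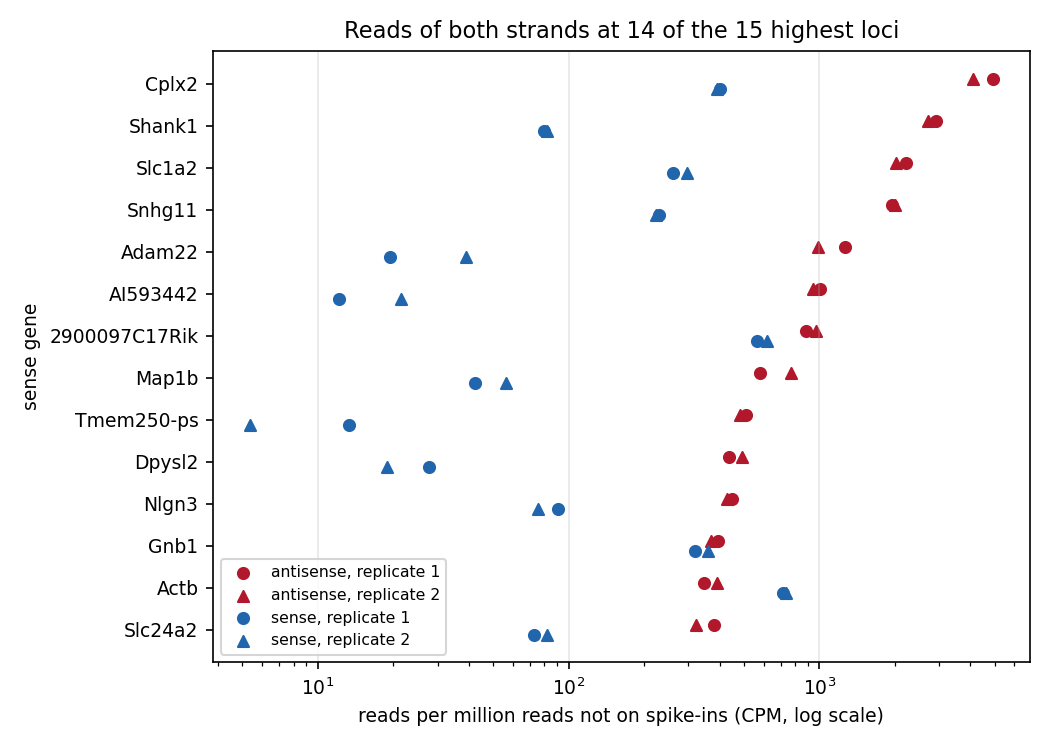
Antisense (red) and sense (blue) reads per 1000000 reads not on spike-ins at 14 of the 15 loci with the highest antisense level, on a log axis, 1 point a library. Antisense points lie to the right of the sense points for 13 loci, and for Actb antisense stood at 347 and 392 CPM against 717 and 734 CPM for sense.

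Across the loci, antisense reads made up a median of 46.3% and 45.7% of the reads of both strands in replicates 1 and 2, with quartiles at 26.3% and 69.8% in replicate 1 and 25.6% and 69.6% in replicate 2. Pooled over loci the share was 37.7% and 36.8%. In 605 loci (39.4%) antisense reads outnumbered sense reads in both libraries, and in 88 loci they stayed under 10% in both. The ERCC spike-ins, which carry RNA of 1 known strand, give the level of reads set on the wrong strand in the same libraries. This level does not cover apparent antisense reads from neighbouring genes, intronic repeats or priming at A-rich stretches of the mouse RNA. It was 75 of 9644 spike-in reads in replicate 1 (0.778%, with a 95% interval of 0.612 to 0.974% by the exact Clopper-Pearson method) and 47 of 6799 in replicate 2 (0.691%, 0.508 to 0.918%). Among the loci with the lowest shares, Gabarapl1 was not above that level, and the others named below had mean shares above it. These intervals cover counting error only.

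**Figure D2:**
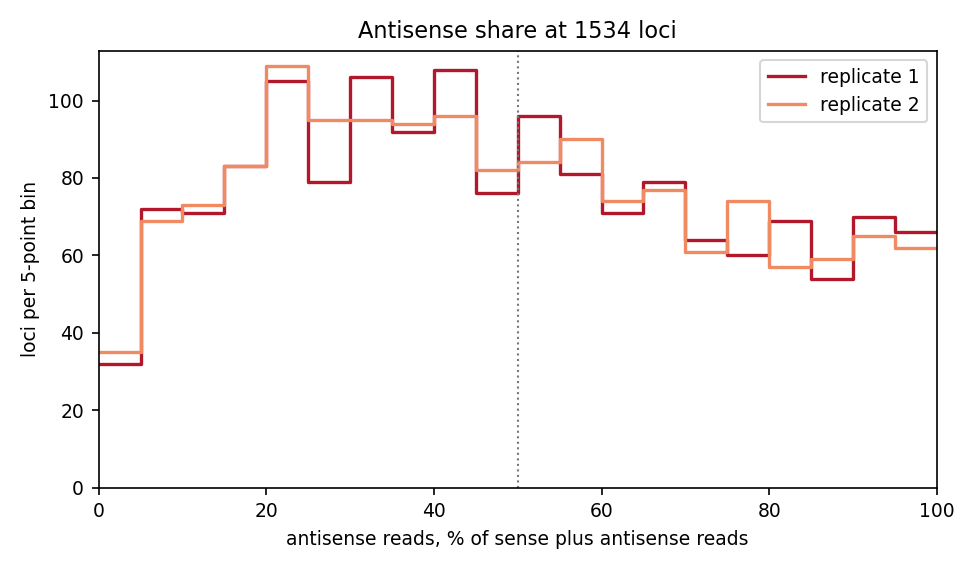
Number of loci by the share of antisense reads in sense plus antisense reads, in bins of 5 percentage points, 1 line a library. The shares spread over the whole range around medians of 46.3% and 45.7%, and the dotted line marks 50%.

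The lowest antisense shares belonged to genes with abundant sense reads, since a minimum of 10 antisense reads allows a low share only there. Gabarapl1, which acts in autophagosome formation, had 17 and 10 antisense reads against 3157 and 2309 sense reads, a share of 0.483% ± 0.0738, so its share was not above that of the spike-ins. Chn1, App, Ywhah, Rtn1, Gpm6a and Cpe were also among the 8 lowest, with mean shares of 1.18 to 2.25%. Cpe, the carboxypeptidase that trims peptide hormones, still had 65 and 57 antisense reads.

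At the other end, sense reads were absent from 29 loci in replicate 1 and 36 in replicate 2. The 8 with the most antisense reads among those at 100% in both libraries were Gm26944, CT010467.1, Slc15a1, B930095G15Rik, 4930432B10Rik, Slc3a1, Oip5 and Arl5c. Gm26944 had 120 and 92 antisense reads in 1 model a library, which began 1146 and 2809 bases past the end of Pcf11, a gene on the model's own strand. Slc15a1 and Slc3a1, membrane transporter genes, had 64 and 53 and 35 and 22 antisense reads, all intronic. The 22 reads of Slc3a1 in replicate 2 lay in models over Prepl, a RefSeq gene on the antisense strand, and none in replicate 1 did. Arl5c had 17 and 24 reads in the same model of both libraries, chr11:97993836-97994338 on the plus strand.

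Within the loci, the level of antisense reads had little relation to that of sense reads, with a Spearman rho of 0.09 between the mean CPM of both (n = 1534 loci, which share libraries). The minimum of 10 antisense reads cuts off low levels, so this rho does not describe genes in general. Of genes under 10 CPM in sense reads 4.44% were loci, against 18.8% at 300 CPM or more. The antisense share fell with the sense level over the loci (rho -0.867). Sense reads are part of that share and the antisense reads were cut off from below, so such a fall is built in and nothing is read from it. The antisense share itself was close to the same in both libraries, with rho of 0.94. The median sense level was 32.7 and 33.5 CPM at the loci and 19.4 and 20.1 CPM over the 14787 genes with a sense read in each library. Of those 14787 genes, 1491 were loci, a background of 10.1%. The share of genes that were loci was 24.8% among the 3697 longest genes (917 loci) and 1.43% among the 3697 shortest (53 loci), where median sense levels were 18.3 and 15.4 CPM. The median span from gene start to gene end was 82614 bases at the loci and 23277 bases over detected genes. The number of models at a locus followed its span with a rho of 0.79. The antisense level, cut off from below by the rule, did not within the loci (rho 0.09).

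Introns held most antisense reads of the loci and the 3′ UTR held most of the rest. The share was 56.1% ± 0.808 in introns, 35.2% ± 1.46 in the 3′ UTR, 4.74% ± 0.132 in exons of noncoding transcripts and 0.762% ± 0.0590 in coding sequence (SD, n = 2 libraries). Exons made up 4.59% of the summed span of the loci and held 41.2% ± 1.49 of the reads. Unspliced sense reads of the same genes lay mostly in the 3′ UTR, at 77.1% and 72.9% in replicates 1 and 2, and 19.9% ± 1.21 were intronic. At the other genes with antisense reads, 81.6% ± 0.451 of the antisense reads were intronic and 8.27% ± 0.192 in the 3′ UTR. Without the 15 highest loci, introns held 71.7% ± 0.0128 and the 3′ UTR 20.6% ± 0.153 of the reads of the remaining loci.

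By locus rather than by read, introns led. In 911 loci (59.4%) at least 90% of the antisense reads were intronic in each library, and their median antisense share was 43.2%. In 79 loci (5.15%) at least 90% lay in the 3′ UTR, with a median antisense share of 66.1% and shorter genes, of 25788 bases at the median against 92805 bases for the intronic loci. In 465 loci no antisense read touched the last exon of any annotated transcript in either library, and in 107 loci every one did. Hydin, Ube2s, Kcnip4, Lncpint and Mmrn2 were the highest of those with none in a last exon. Kcnip4, a long gene for a potassium channel-interacting protein, spread its 181 and 166 antisense reads over 38 and 45 intronic models, whereas Hydin, a gene of motile cilia, had all its 237 and 196 in 1.

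Each gene was divided into 10 equal bins from its start to its end. Of the antisense reads of the loci, 25.8% ± 0.122 had their model's midpoint in bin 10 and 14.0% ± 0.512 in bin 1. The unspliced sense reads of the same genes had 74.7% ± 1.53 in bin 10 and 3.31% ± 0.615 in bin 1. Bin 7 held 12.3% ± 0.775 of the antisense reads, and 6.93% ± 0.129 without Cplx2. Models that started within 50 bases of an annotated end of a sense transcript held 11.6% and 9.45% of the antisense reads in replicates 1 and 2, and models that started within 1000 bases of a sense transcript start held 6.94% ± 0.230.

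**Figure D3:**
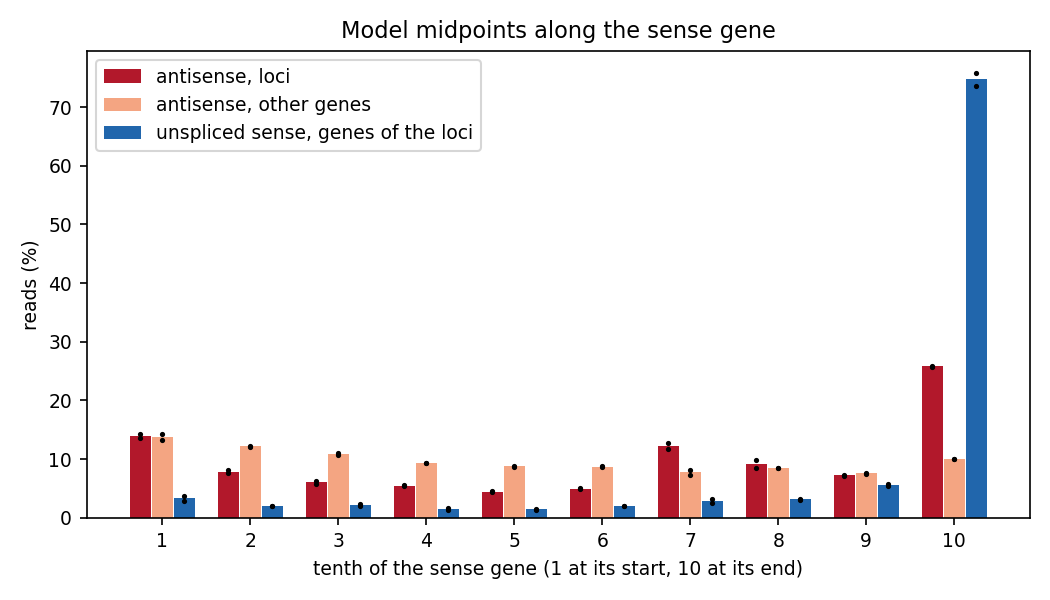
Share of reads by the bin of the sense gene, of 10 from start to end, that holds the midpoint of their model, for antisense reads of the loci (red), antisense reads of other genes (orange) and unspliced sense reads of the loci's genes (blue). Bars are means and dots the 2 libraries. Unspliced sense reads gather in bin 10 (74.7%), and antisense reads are spread along the gene with 25.8% there.

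Some antisense reads lay next to or on annotated genes of their own strand. Models that started up to 5000 bases past the end of a GENCODE gene on the same strand held 11.7% ± 0.751 of the antisense reads, and 71 loci had at least 10 such reads in each library. Among the highest loci these were Shank1 (2038 bases past 1700008O03Rik), Adam22 (2973 bases past Sri) and 2900097C17Rik (843 bases past Rpl21-ps9). RefSeq genes on the antisense strand were overlapped at 161 loci, at 87 of them in each library, with 7.97% ± 0.898 of the reads. A strand was at hand for 27024 of 49997 RefSeq genes and the others could not be counted, so these values are lower limits. After Cplx2, the most reads of this kind were at Actb over Gm38733 (287 and 292) and at Pitpnc1 over Gm39425 (130 and 125). Models over more than 1 gene of the other strand held 5.04% ± 0.295 of the reads, and their sense gene is uncertain. The part of neighbouring genes in the counts was not tested.

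The bases after the 3′ ends were rich in A. Among models at the loci that ended off annotated exon boundaries and had known bases after the end, at least 12 of the next 20 bases were A in 398 of 565 models in replicate 1 and 418 of 575 in replicate 2, or 71.6% ± 1.59. Before the 5′ end the same count was reached in 1.68% ± 0.219, and among 642936 windows of 20 bases on the antisense strand of the same genes' exons in 2.08%. Unspliced sense models of these genes gave 22.4% ± 3.66, and antisense models at other genes 71.6% ± 0.703. The most-read models had it less often: by reads the share was 37.6% and 47.3%. Bases are known only within annotated exons, which covers 7.51% and 7.60% of these models and 41.8% and 40.3% of their reads. The part of such stretches in the antisense counts was not tested.

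Models that ended exactly on an annotated exon boundary had it in 5.97% ± 0.105, and models of both kinds together in 35.7% ± 1.27. Models of 1 base held 4.21% ± 0.0284 of the antisense reads, mostly those of Shank1. Boundary ends were common: 31.0% ± 1.23 of the antisense reads sat in models with an end exactly at an annotated exon boundary. The hexamer AATAAA, the usual polyadenylation signal, stood in the last 40 bases of 37 of 565 and 41 of 575 antisense models (6.55% and 7.13%). It stood there in 36.0% and 36.2% of 222 and 232 unspliced sense models and in 2.72% of 314358 exon windows of 40 bases on the antisense strand.

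**Figure D4:**
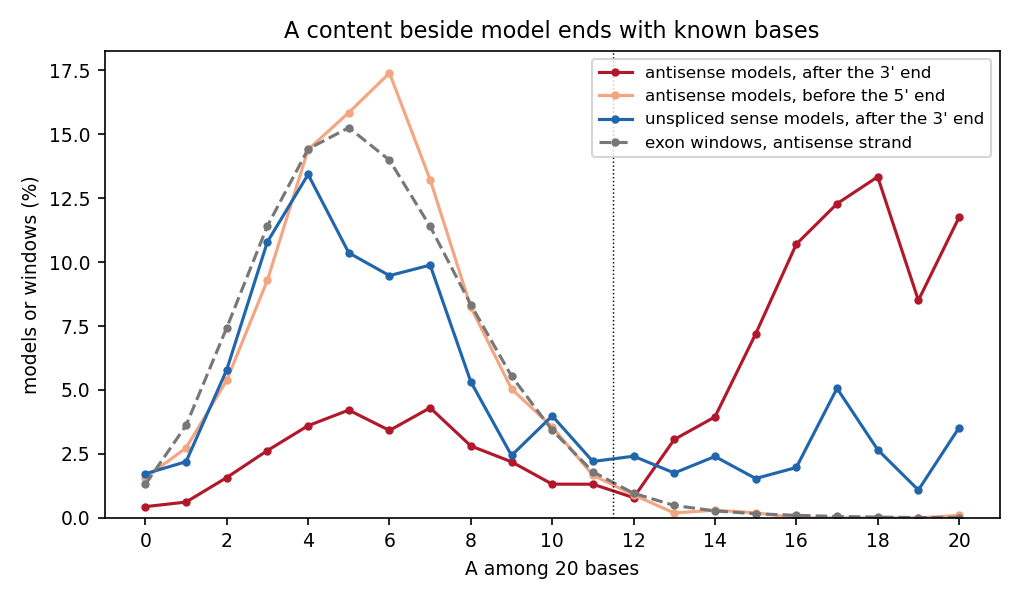
Share of models, or of exon windows, by the number of A in 20 bases, as the mean of 2 libraries. After the 3′ end of antisense models at the loci (red) 71.6% reach 12 or more A, right of the dotted line, against 1.68% before the 5′ end (orange), 22.4% after unspliced sense models (blue) and 2.08% of exon windows (grey, dashed).

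A group of antisense models had almost the same length. Between 170 and 185 bases there were 304 and 291 models at the loci, against 121 and 119 per 16 bases on either side, and 96.4% and 93.8% of them were intronic. The commonest length above 50 bases was 177 in replicate 1 and 176 in replicate 2. Antisense models at other genes had such a group too, with 716 and 658 models against 240.5 and 225 beside it. It made up 5.56% and 5.32% of the models there, against 3.54% and 3.36% at the loci. Unspliced sense models of the same genes also had it (161 and 133, against 52.5 and 37.5 beside it), so it was not limited to the loci or to the antisense strand.

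In 36 loci the leading model was of this length in both libraries, and in 35 of them its ends matched within 10 bases. Hydin had 237 and 196 reads at chr8:110484623-110484801 and chr8:110484623-110484800. Ube2s, a ubiquitin-conjugating enzyme gene, had 220 and 162 reads at chr7:4799918-4800095 and chr7:4799920-4800095. Abcc5 had 152 and 111, Mmrn2 138 and 116, Ptprn2 110 and 81, and Slc15a1 63 and 53 reads in such a model. Sense reads at the 36 loci ran from 0 to 188 in replicate 1 and from 0 to 185 in replicate 2. Hydin had 1 and 1, Mmrn2 4 and 6, Slc15a1 none, Ube2s 33 and 40, Abcc5 66 and 71, and Rbm39, an RNA-binding protein gene, had the most.

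**Figure D5:**
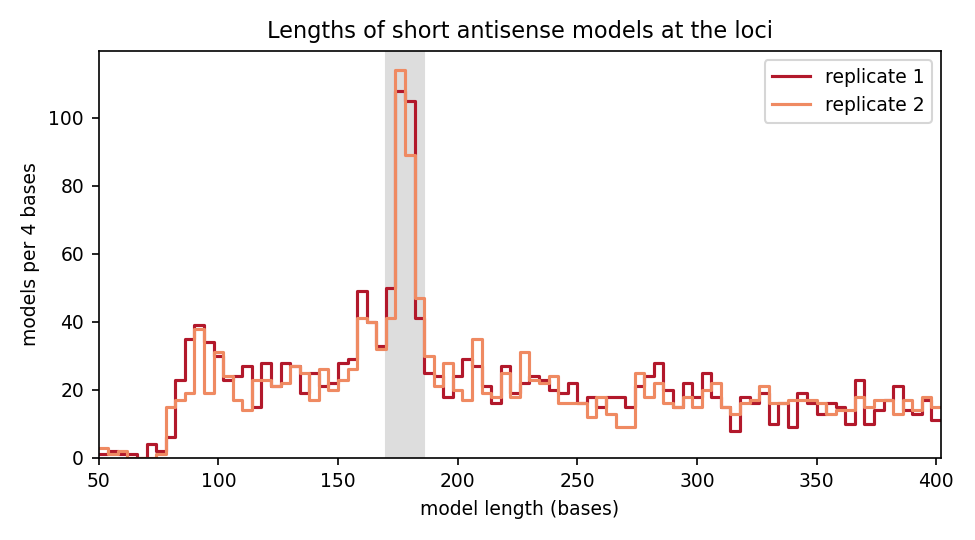
Number of antisense models at the loci by length in steps of 4 bases, for models of 50 to 401 bases, 1 line a library. The shaded span of 170 to 185 bases holds 304 models in replicate 1 and 291 in replicate 2.

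Leading models often recurred. In 375 loci (24.4%) the leading models of both libraries had ends within 10 bases of each other. Tmem250-ps, Hydin, Dync1i2, Frat1 and Cnnm4 had the highest antisense levels among the loci with every antisense read in such a model. Frat1, an inhibitor of GSK3 in Wnt signalling, had 83 and 70 reads at chr19:41831274-41831394 on the minus strand in the 3′ UTR, against 2 and 2 sense reads. Cnnm4, which encodes a magnesium transport protein, had 82 and 70 antisense reads against 1 and 0 sense reads. Dync1i2, a dynein intermediate chain gene, had 97 and 80 antisense reads in an intron against 47 and 50 sense reads.

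The functional lists of sense genes, chosen with results of these data known, differed in how many of their genes were loci, against the background of 10.1% of detected genes. The lists hold highly expressed genes, with median sense levels of 206 to 996 CPM. Of 425 genes at 300 CPM or more, 18.8% were loci. The share also rose with gene span, from 1.43% of the 3697 shortest detected genes to 24.8% of the 3697 longest. The lists were not matched for span, and the part of span in their differences was not tested. Signalling adaptors and membrane traffic had 10 of 19, led by Gnb1 and then Ywhaz, a 14-3-3 protein gene with 267 and 253 antisense reads against 518 and 383 sense reads. Vesicle release had 9 of 20, led by Cplx2 and then Snap25, a SNARE protein gene with 88 and 72 against 1352 and 1242. Syt1 and Syt11, synaptotagmin genes, had 64 and 44 and 37 and 48 antisense reads.

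Postsynaptic and calcium signalling genes had 9 of 21 as loci. After Shank1, the calcineurin gene Ppp3ca had 117 and 109 antisense reads against 1537 and 1580 sense reads. The AMPA receptor gene Gria2 had 82 and 97 against 404 and 388, and Hpca, the calcium sensor hippocalcin, had 97 and 81 against 1834 and 1613. Protein turnover and chaperone genes had 7 of 18, led by Itm2c (79 and 63 antisense reads), Psap (83 and 51), Cpe and Uchl1 (32 and 39). Translation and RNA-binding genes had 6 of 19, with Snhg11 followed by Malat1, a nuclear noncoding RNA with 122 and 104 antisense reads against 103 and 127 sense reads.

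Cytoskeleton and axon genes had 6 of 22, with Mapt, the tau gene, at 73 and 75 antisense reads after Map1b, Dpysl2 and Actb. Ion pumps and channels had 3 of 17 (17.6%), among them the calcium pump genes Atp2b1 (90 and 69 antisense reads) and Atp2b2 (57 and 82). Of 17 glial genes Slc1a2 and Slc1a3 were loci, or 11.8%, which is near the background of 10.1%. None of the 18 energy metabolism genes was a locus: Aldoa, with 2306 and 1955 sense reads, and Ckb, with 1064 and 1067, had no unspliced antisense read in either library, and Pkm had 12 and 6. Median antisense shares of the loci in a list ran from 5.80% for vesicle release to 46.7% for the glial pair.

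The antisense reads were also set between the libraries. An exact two-sided binomial test on the antisense reads of each sense gene, with Benjamini-Hochberg adjustment over 1836 genes, called 48 genes at an adjusted p under 0.05 and at least 2-fold, a background of 2.61%. Of the 1535 loci 12 were called, 4 higher and 8 lower in replicate 1. The same counts chose the loci, and the rule keeps out genes seen in 1 library only, so these loci are given as a description with no p-value and nothing is read from their share. With models of at least 200 bases only, 54 loci were called, and with no minimum fold 20. The share called among all tested genes is not given for these settings, so nothing is read from these counts either. In bulk libraries fewer cells of a type and less RNA per cell cannot be told apart, and the part of the higher Ttr level of replicate 1 in these differences was not tested. Luc7l2, a splicing factor gene, had 36 and 132 antisense reads (43.6 and 177 CPM, log2 ratio of replicate 1 over replicate 2 -2.01). Meg3, an imprinted noncoding RNA, had 141 and 31 antisense reads (171 and 41.6 CPM, log2 ratio 2.02). Rian, a neighbour of Meg3 in the same imprinted cluster, had 77 and 29 antisense reads (log2 ratio 1.24).

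The remaining called loci were Ppp6r3 (92 and 39 antisense reads) and Tra2b (51 and 17), higher in replicate 1, and Wipf3 (13 and 52), Fxr2 (38 and 90), Nup98 (35 and 85), Clasp1 (12 and 42), Slc1a3 (14 and 40), Ssbp3 (25 and 51) and Fam208b (16 and 37), lower in replicate 1. Fam208b lost its call when levels were scaled to all unspliced antisense reads, and when genes with at least 10 reads together were tested. The libraries were processed apart, and a stretch can have been given another class or sense gene in each. When all unspliced, unannotated reads on the opposite strand over a gene were counted whatever their class, a choice made after seeing the data, 6 of 1836 genes (0.327%) and 3 of the 12 loci were called. These were Rian (102 and 33 reads), Fxr2 (38 and 92) and Ppp6r3 (92 and 40). Luc7l2 then had 160 and 168 reads, Meg3 142 and 117 and Slc1a3 38 and 40, with log2 ratios of -0.22, 0.13 and -0.22. Ssbp3 and Fam208b had the same reads as before and were not called.

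The sense level of the loci's genes, which the rule did not use, was tested in the same way. Of 9062 genes 28 were called (0.309%), and of 1216 loci tested 3 were called. Nlgn2, a postsynaptic adhesion gene, had 99 and 1 sense reads in replicates 1 and 2 (log2 ratio 5.90, adjusted p 2.70e-23, exact binomial test). In replicate 2, 74 reads on the strand of Nlgn2 over that gene were assigned to Spem1 instead, and none were in replicate 1. Ate1, an arginyltransferase gene, had 21 and 49 sense reads (adjusted p 0.0342, exact binomial test), and in replicate 1 a further 10 reads on its strand over the gene were assigned to Fgfr2, with none in replicate 2. Pum2, a gene of an RNA-binding protein, had 16 and 41 sense reads (adjusted p 0.0471, exact binomial test). Pum2 lost its call when genes with at least 10 reads together were tested.

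The antisense share was set between the libraries with Fisher's exact test, adjusted over 2558 genes, of which 34 were called (1.33%). Among 1409 loci with enough reads, 7 were called, again as a description because the antisense counts enter the share: Meg3, Rian and Ppp6r3 with a higher share in replicate 1, and Nlgn2, Luc7l2, Fxr2 and Slc1a3 with a lower one. At Nlgn2 the share was 29.3% and 98.3%, and at Meg3 it was 26.3% and 8.01%. With sense reads of full-splice models only, the difference of replicate 1 minus replicate 2 was -4.65 percentage points at Nlgn2, against -69.0, and 2.05 at Rian, against 27.7, and neither was called. Fxr2 (-16.4, against -16.8) and Ppp6r3 (22.3, against 25.4) also lost the call with differences of nearly the same size. Meg3, Luc7l2 and Slc1a3 were still called, and theirs are the opposite-strand reads given above as near level between the libraries once class is ignored.

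Gm26917, a lincRNA gene on the plus strand at chr17:39843013-39846341, had 12080 and 13838 unspliced antisense reads, against 10 and 21 sense reads. That is 11.7% and 14.3% of all unspliced antisense reads on annotated genes, and far above the 4059 and 3066 reads of Cplx2. All of them were in 1 model with the same ends in both libraries, chr17:39843013-39846245 on the minus strand, of 3233 bases. The model starts 108 bases past CT010467.1, an annotated rRNA gene on the same strand at chr17:39846353-39848827. CT010467.1 is itself a locus on its other strand, with 81 and 83 antisense reads, no sense read in either library, and a model that begins 137 and 12 bases past Gm26917. The labels and file headers do not say how reads from near-identical copies were counted, so the levels of both are uncertain.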

How the data were processed

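Long-read RNA sequencing of 1 group of 2 hippocampus libraries was analysed. The authors' deposited values are raw read counts per transcript model, listing models with at least 1 read, with model structures that name TALON as their source per the file headers. They rest on mm10, per the labels, and on the GENCODE M21 annotation, per the text files deposited with them. Of 55536 annotated genes in the deposited structures, 39059 had the same start, end and strand in the GENCODE M21 copy used here. The reason for the other differences was not examined, and positions within genes are those of that copy. The aligner and the priming of the cDNA are not stated in the labels or headers. The libraries were processed separately, models of a strand rarely overlap, and many ends lie exactly on annotated boundaries, so a model gathers the reads of a stretch and single read ends were not used here.

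Single-exon antisense counts were summed per sense gene (gene_antisense_to_IDs) and levels scaled to reads not on spike-ins (CPM). Models were placed by the majority of their bases on GENCODE M21 exons, and the bases beside their ends came from its transcript sequences, so intronic bases were not read. RefSeq genes (GRCm38.p6) served for names only. The members and gene lists were chosen with earlier results of these data known. Named loci are the 15 with the highest antisense level, the 8 highest and 8 lowest shares, 5 on either side of the minimum, loci called between libraries, up to 4 of each list, the 5 with the largest share of reads outside the last exon and the 5 with the largest share in a recurring model, ties by antisense level. Abcc5, Ptprn2, Rbm39, Cnr1, Nfia, Pitpnc1 and Arl5c's model were named after their values were seen or by the rules given beside them. Some named loci are not reported here.

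Exact binomial and Fisher tests (scipy 1.17.1) compared the libraries over all genes, for genes with at least 20 antisense or sense reads together, or at least 10 antisense reads together and 20 reads of both strands in each library. The ratios add 0.5 reads to each count. The tests take reads as independent molecules, so p-values may be too small. They were run on simulated counts, which were also drawn as independent reads, so that check cannot show whether p-values are too small. In it the share test recovered fewer of the changes put in than the level tests did. TMM factors came from edgeR 4.0.16.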

Additional observations from a re-analysis of the deposited data

How the results depend on the processing

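The number of loci was 2792 at a minimum of 5 reads and 669 at 20, and within 1.5 times of 1534 with models of at least 50 or 200 bases, models over 1 gene, spliced models added, or 1 library (1855 to 1974 loci). The median antisense share of 46.0% became 61.2% with full-splice sense reads only, 52.2% without genomic sense models and 41.7% with models of at least 200 bases. The intronic share of 56.1% was 58.6% and the 3′ UTR share 32.6% with models of at least 50 bases, 60.0% and 31.4% at a minimum of 5 reads, and 48.2% and 42.4% at 20. As medians over loci they were 99.1% and 0%, and the share starting within 50 bases of a transcript end was 0%. Antisense calls between libraries numbered 77 with at least 10 reads together, 20 with at least 50, 89 (54 of them loci) with models of at least 200 bases, and 6, against 48, when reads of any class were counted, where Tra2b turned from a log2 ratio of 1.41 to -0.067. The sense level gave 52 calls with no minimum fold, against 28. The A-rich share of 71.6% was 35.7% with all ends, 5.97% with boundary ends only, 74.2% at 10 A and 63.8% at 15 A, alternatives chosen after seeing the data. The cause was not tested. No other result changed direction under the alternatives run, and single loci lost their call in 15 cases. Leaving out a library gives no library comparison. No paired analysis was possible because there is 1 group of 2 libraries. At 1 read for 1.21 to 1.34 CPM, depth limits the median locus to 21 and 20 antisense reads.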
